A study of Rattus norvegicus with 11 samples.

Results

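The genes described here are those of hepatic stellate cells and of the extracellular matrix, a list of 47 genes made of 12 collagens, other matrix proteins, matrix proteases with their inhibitors, and markers and receptors of stellate cells. They were measured in liver RNA of Wistar rats, with 1 Affymetrix oligonucleotide array per animal. The 3 control animals carry the numbers 1, 2 and 9, and the 8 animals labelled as given a high dose of mequindox carry the numbers 2, 3, 4, 5, 6, 8, 10 and 11. Mequindox is a quinoxaline N-oxide antibacterial for livestock, and the sources used here do not give its amount, route or duration. The labelled age was week 9, except for high-dosed animal 8 at week 10. The animals taken to arrays had been picked with a metabolite analysis of liver extracts and blood chemistry in view. Each gene was represented by its probe set with a single gene symbol and the highest mean signal over the 11 arrays. A probe set of this kind existed for 45 of the 47 genes, and Thbs1 and Tgfbr2 were not analysed here. Of the 45, 42 lay above the signal filter used for all genes (a mean log2 signal of 7.40, the 40th percentile of all probe sets) and were tested among 10714 genes, while Acta2, Postn and Tnc lay under it.

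Stellate cells lie between hepatocytes and the sinusoidal endothelium, store vitamin A as retinyl esters, and are the main source of fibrillar collagen when the liver scars. When activated they lose these stores, take on contractile filaments such as alpha smooth muscle actin, and secrete collagens, proteoglycans and inhibitors of matrix proteases. The amount of matrix depends on its synthesis, on its crosslinking by lysyl oxidases and on its breakdown by metalloproteinases, which the TIMP proteins hold in check. TGF-beta and platelet-derived growth factor are the best known signals that drive the activated state.

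The arrays held signal for genes that define stellate cells in all 11 animals. Of 13 such markers 11 had a probe set and 10 lay above the filter, among them Lrat, which esterifies retinol for storage, Reln and Ecm1; Ngfr lay under it. Their summed intensity ran from 7618 to 8120 in controls and from 7015 to 8337 in high-dosed animals, so the ranges overlapped. Ecm1, at 1970 to 2715, and Reln, at 2044 to 2558, made up much of each sum, and hepatocytes also secrete Ecm1. None of the 11 had a mean at the lowest value of the table, an intensity of 1. Only 100 values of the whole table stood there, so this does not show that a gene was expressed. The 8 markers of activated stellate cells or myofibroblasts, 6 of them above the filter, summed to 7624 to 8716 in controls, control 1 being the lowest, and to 7652 to 10876 in high-dosed animals, animal 11 being the highest. Col3a1 alone, at 5492 to 7461, was the bulk of each sum. The log2 fold changes of Col1a1, Col1a2, Col3a1, Timp1 and Tagln were above 0 and that of Lox below. Lox lay below all controls in 5 high-dosed animals, and Acta2, under the filter, in 7. The RNA came from pieces of whole liver, in which fewer cells of a type and less RNA per cell cannot be told apart.

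The array of high-dosed animal 11 stood apart for the matrix genes. It had the highest value of all 11 animals for 15 of the 42 tested genes, although it held the highest value for 8.78% of all genes tested. Among the controls, control 1 had the lowest value of all 11 animals for 11 of the 42, and for 18.1% of all genes. High-dosed animals 8, 4 and 11 were lowest for 7, 5 and 5 of the 42. Over all genes they were lowest for 11.5%, 3.62% and 17.7%, so low values were not particular to control 1. Animal 11 also carried high signal for genes of skeletal muscle and epidermis, lists chosen after the values were seen. Of 17 skeletal muscle genes 12 were highest in animal 11, and the list summed to 23779 there against 7992 to 13400 in the other 10 animals. Myh1 alone, at 5878 to 11112, was most of the sum in those 10, and it read 10075 in animal 11. Of 17 epidermis genes 13 were highest in animal 11, with a sum of 7814 against 1714 to 2471. Tnnc2, the fast muscle troponin C, read 1478 in animal 11 and at most 114 elsewhere, and Loricrin, a protein of the cornified skin layer, read 1160 and at most 291 elsewhere. Several matrix genes are also expressed in skin and muscle. What part this signal had in the matrix genes' values was not tested, so results that lean on animal 11 are given with and without it.

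Between the groups, 4 of the 42 tested genes changed, 3 of them higher and 1 lower in high-dosed animals. These were Timp2, a metalloproteinase inhibitor, Fbn1, which builds microfibrils, and Col18a1, a basement membrane collagen that yields endostatin, all higher, and Ccn2, the matricellular protein also called connective tissue growth factor, which was lower. The share of 9.52% lay next to that of all genes tested, of which 10.6% changed, 7.91% higher and 2.74% lower (limma, Benjamini-Hochberg adjusted p below 0.05). For 5 of the 42 genes every high-dosed animal lay on one side of all controls, against 12.1% of all genes tested: Timp2, Fbn1, Mmp2 and Col5a2 were above and Ecm1 below. The median log2 fold change over the 42 genes was 0.066, where log2 values are log2(intensity + 55.3) and positive values are higher in high-dosed animals, and the median over all genes was 0.017. Without animal 11 the 2 medians were 0.0285 and 0.0247. A further 9 members had an unadjusted p below 0.05 and did not pass adjustment. With the 4 called genes this made 13 of the 42, against 2753 of all 10714 genes tested. Fibrillar collagens, lysyl oxidases and stellate cell markers held no gene that passed. The count of 4 was 2 without control 1 (Col18a1 and Timp2), a share of 4.76% where 3.03% of all genes were called. It was 1 without control 9 (Timp2), a share of 2.38% against 7.54% of all genes. It was 7 without high-dosed animal 2, a share of 16.7% against 13.1% of all genes, where Col3a1 (0.24, adjusted p = 0.0322), Col5a2 (0.47, adjusted p = 0.0464) and Col14a1 (0.30, adjusted p = 0.0442) passed as well.

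**Figure D1:**
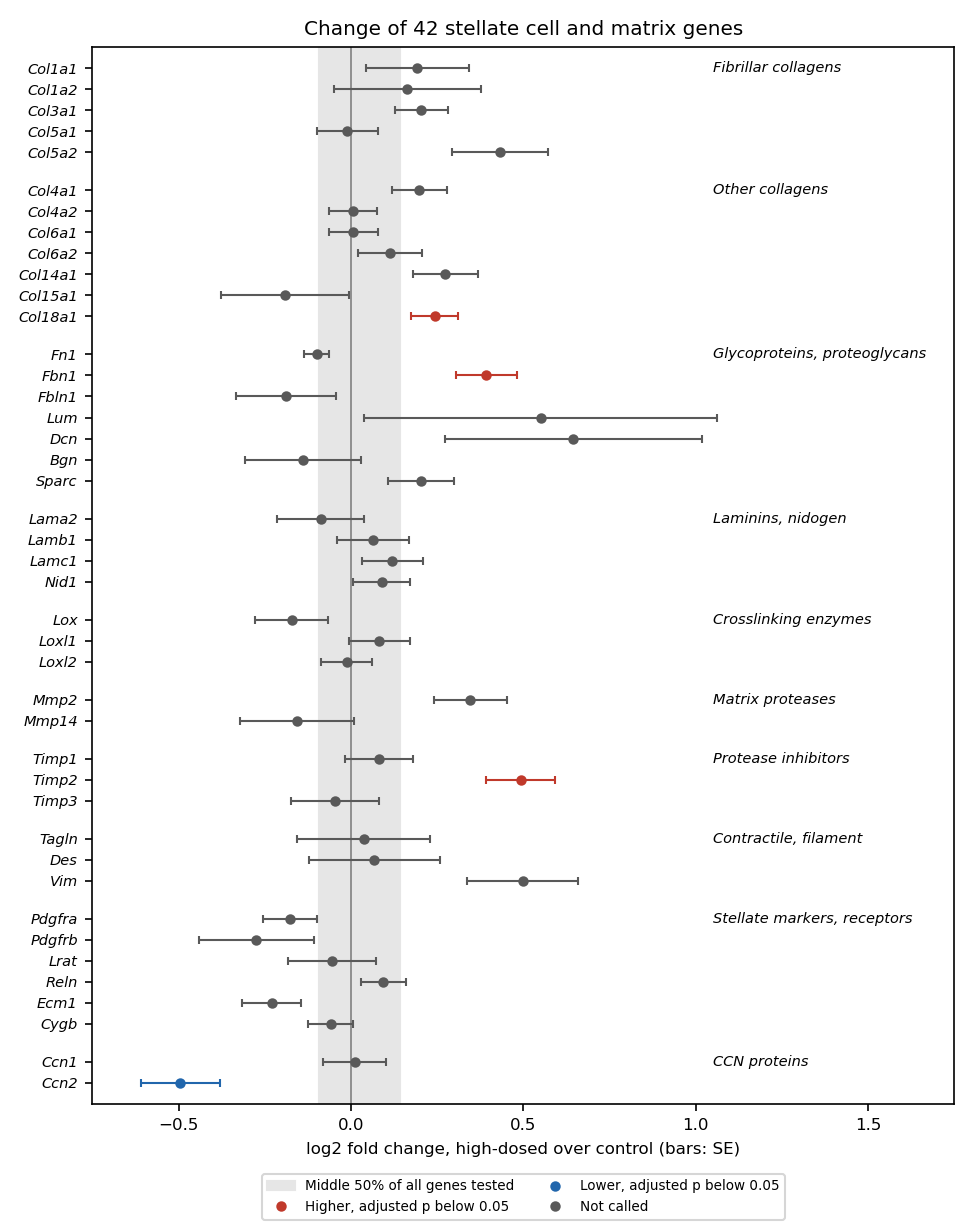
Log2 fold change of high-dosed over control animals (x axis) for the 42 tested genes, ordered by role, with bars for the standard error from limma (3 control and 8 high-dosed animals) and a grey band for the middle 50% of all 10714 genes, from -0.093 to 0.14. Timp2 (0.49), Fbn1 (0.39) and Col18a1 (0.24) are marked as higher and Ccn2 (-0.50) as lower, while Dcn and Lum have the largest values and the widest bars.

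With all animals no fibrillar collagen passed the test. Col3a1, the reticular collagen that is abundant in normal liver, had intensities of 5492, 5729 and 6106 in controls 1, 2 and 9, and from 5658 to 7461 (median 6668) in high-dosed animals. All high-dosed animals but animal 2 exceeded the 3 controls. Its log2 fold change was 0.20 ± 0.077 (SE, limma adjusted p = 0.11). Col5a2, a chain of collagen V, which sets the width of collagen fibrils, read 336, 460 and 413 in the controls (460.5 for control 2) and from 462.5 to 745 (median 523) in high-dosed animals. The groups did not overlap, by a margin of 462.5 against 460.5. Its value of 0.43 ± 0.14 did not pass either (limma adjusted p = 0.0667), and the other of its 2 probe sets gave 0.38. With animals numbered 8 and above set as a block against those numbered 6 and below, Col5a2 passed (0.42, adjusted p = 0.0207). Without animal 11 the value was 0.38, and without control 1 it was 0.32 (limma adjusted p = 0.0771 and 0.324).

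Col1a1 and Col1a2 encode the chains of collagen I, the bulk of scar collagen. Col1a1 read from 285 to 368 in controls and from 294 to 533 in high-dosed animals, with a log2 fold change of 0.19 ± 0.15. Its other probe set gave 0.44 ± 0.21, and the mean of both 0.32, neither of them called. Col1a2 read from 811 to 1164 in controls and from 718 to 1621 in high-dosed animals (0.16 ± 0.21), and its other probe set gave 0.25 ± 0.26. For both genes the highest value was that of animal 11, and the ranges overlapped. Without animal 11 the values of the brighter probe sets were 0.13 and 0.091, and without control 1 they were 0.11 and 0.023, none of them called. Col5a1, the partner chain of Col5a2, had a value of -0.010 ± 0.090, which lay well within its error.

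Among the other collagens only Col18a1 passed. Its intensities were 3883, 3139 and 3656 in controls 1, 2 and 9 and from 3811 to 4642 (median 4196) in high-dosed animals. The ranges overlapped because animal 11, the lowest of the high-dosed animals, lay under control 1. The log2 fold change was 0.24 ± 0.068 (limma adjusted p = 0.0407), a 1.18-fold difference, and its other probe set gave 0.21 ± 0.10. In a separate fit over all 18625 probe sets neither passed (limma adjusted p = 0.051 for the brighter and 0.238 for the other). The call was lost without control 2 (0.16, adjusted p = 0.189), without control 9 (0.26, adjusted p = 0.0716), after quantile normalization (0.22, adjusted p = 0.0547), in 8 other settings and without any 1 of 6 high-dosed animals (2 and 11 excepted). Col14a1, a fibril-associated collagen, had a value of 0.27 ± 0.095 and Col4a1, a chain of the basement membrane network, 0.20 ± 0.080, and neither passed (limma adjusted p = 0.0849 and 0.138). The other probe set of Col14a1 gave 0.0010 ± 0.081 and the mean of both 0.14, and without control 1 the value of the brighter one was 0.14. The other probe set of Col4a1 gave 0.17. Col4a2, which is transcribed from the same region as Col4a1 and pairs with it in the protein, had a value of 0.0062 ± 0.069. Col6a1 (0.0072), Col6a2 (0.11) and Col15a1 (-0.19) did not pass.

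Taking the 12 collagens together, 1 rose, 0 fell and 11 did not pass, and 10 had a log2 fold change above 0, with a median of 0.18. Of all genes tested 53.9% had a value above 0. The number above 0 was 8 after quantile normalization, 11 after median centring over all probe sets and 8 after centring over those above the filter. The median was 0.11 without animal 11 and 0.10 without control 1. By animal, the mean over the 5 fibrillar collagens relative to the control mean ran from -0.13 to 0.091 in controls and from -0.074 in animal 2 to 0.48 in animal 11. Animals 2 and 4 lay within the control range for these genes and the other 6 high-dosed animals above it. For the 7 other collagens the high-dosed animals ran from -0.023 to 0.16, with animals 3, 8 and 11 inside the control range of -0.057 to 0.083.

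**Figure D2:**
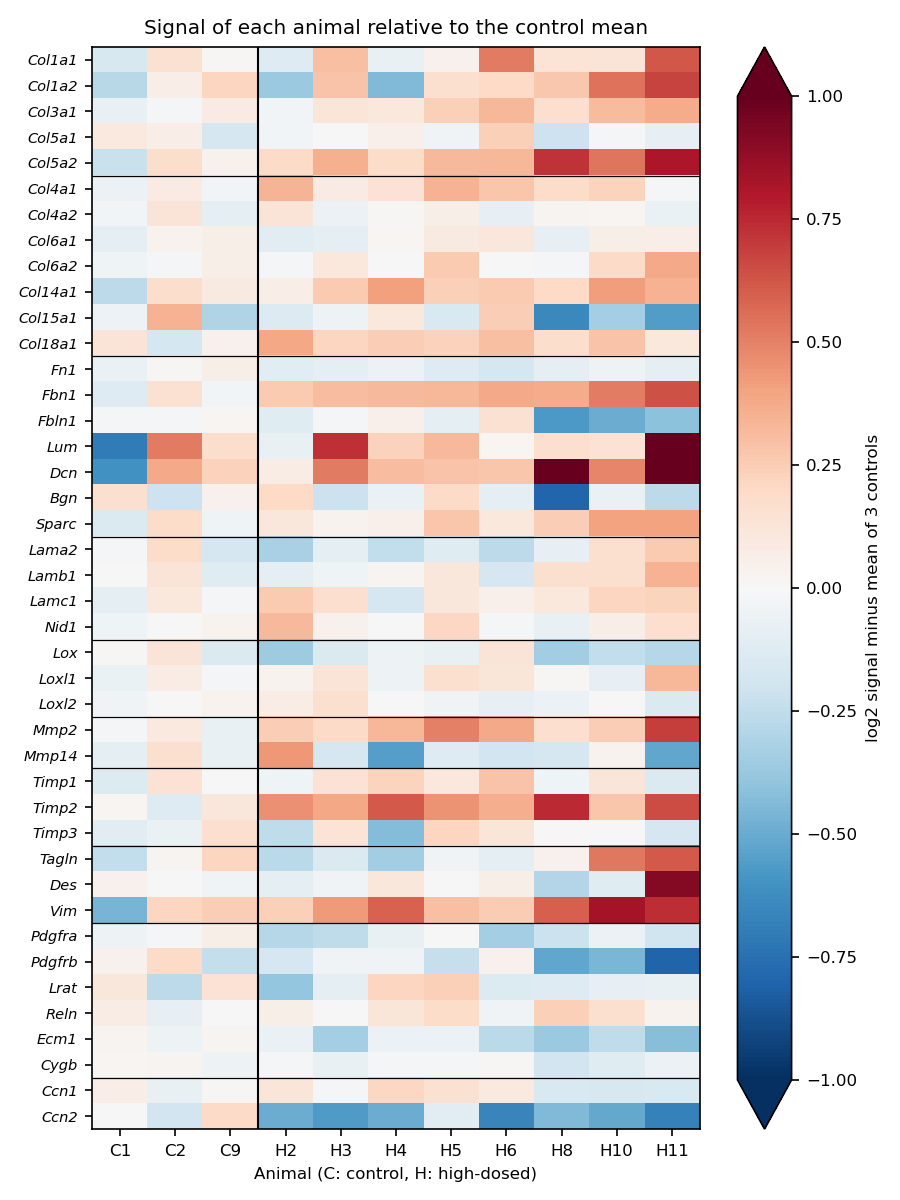
Log2 signal of each animal (columns, C for control and H for high-dosed with the animal number) relative to the mean of the 3 controls, for the 42 tested genes (rows) grouped by role with black lines. Control 1 is low for Lum, Dcn, Vim and Col14a1, animal 11 is high for Lum, Dcn, Des and Col5a2, and Ccn2 is below the control mean in all 8 high-dosed animals.

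Of the glycoproteins and proteoglycans Fbn1 rose. Fibrillin-1 forms the microfibrils that bind latent TGF-beta. Its intensities were 405, 506 and 440 in controls (439.7 for control 9) and from 550.4 to 728 (median 588) in high-dosed animals. Every high-dosed animal lay above every control, with animals 10 and 11 highest. The log2 fold change was 0.39 ± 0.089 (limma adjusted p = 0.0168), a 1.31-fold difference. Its other probe set had a value of 0.24 ± 0.087 and was not called in a fit over all 18625 probe sets (limma adjusted p = 0.118). The call was lost without control 1 (0.33, adjusted p = 0.114) or control 9 (0.38, adjusted p = 0.0525) and in the animals numbered 6 and below (0.31, adjusted p = 0.0825). Without animal 11 it was kept (0.36, adjusted p = 0.0187).

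Dcn and Lum, small leucine-rich proteoglycans that bind collagen fibrils, had the largest values of all members and did not pass. Dcn, encoding decorin, read 155, 361 and 320 in the controls (319.5 for control 9) and from 282 to 1397 (median 367) in high-dosed animals. Lum, encoding lumican, read 36.5, 158 and 113 in controls and from 85.7 to 1024 (median 116) in high-dosed animals. In both, control 1 was the lowest and animal 11 the highest of all 11, and most other animals lay close together. The log2 fold change of Dcn was 0.65 ± 0.37, 0.43 without animal 11 and 0.34 without control 1 (limma adjusted p = 0.308, 0.258 and 0.761). That of Lum was 0.55 ± 0.51, 0.22 without animal 11 and 0.20 without control 1 (limma adjusted p = 0.548, 0.61 and 0.91). The median intensity of the 8 high-dosed animals for Lum lay close to that of control 9.

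**Figure D3:**
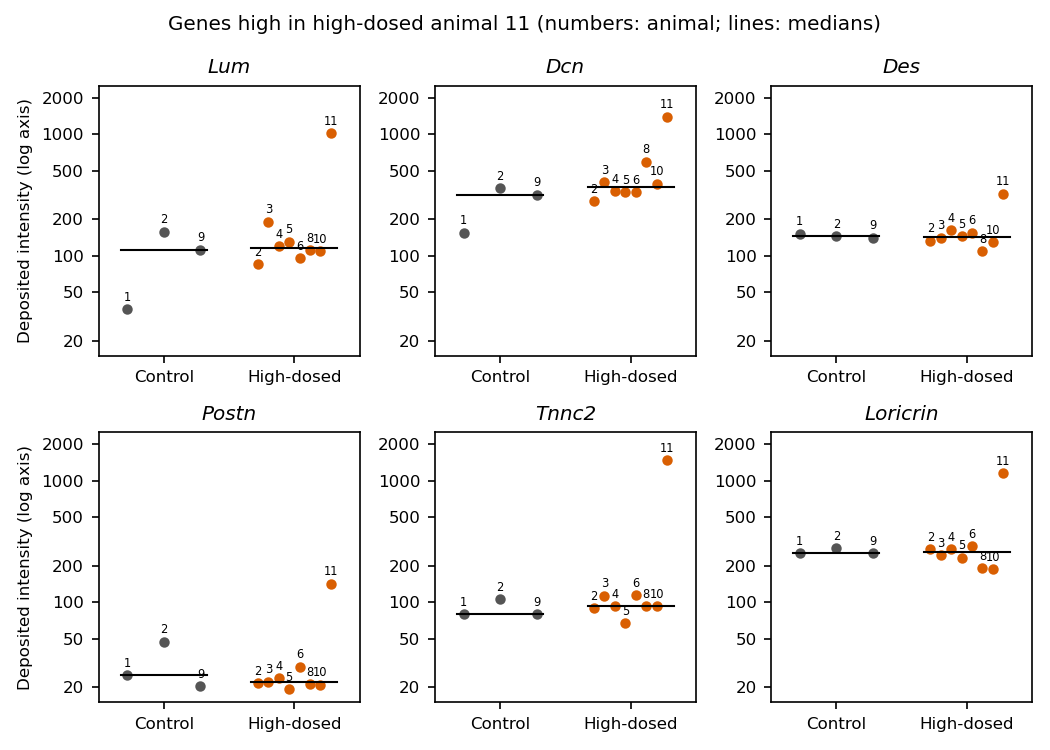
Deposited intensity on a shared log axis for Lum, Dcn, Des, Postn and, for comparison, the muscle gene Tnnc2 and the epidermis gene Loricrin, with a numbered point for each animal and a line at each group's median. High-dosed animal 11 is the highest point in all 6 panels, with 1024 for Lum and 1478 for Tnnc2, and control 1 is the lowest for Lum (36.5) and Dcn (155).

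Fn1, encoding fibronectin, is made mainly by hepatocytes in the liver. It read 11751, 12381 and 12815 in the controls and from 10900.3 to 11857 (median 11491) in high-dosed animals. All 8 high-dosed animals lay below the control mean, and 6 below all 3 controls. The difference was small, with a log2 fold change of -0.10 ± 0.035 that did not pass (limma adjusted p = 0.0893). Sparc, a collagen-binding glycoprotein, had a value of 0.20 ± 0.096 and Bgn, the proteoglycan biglycan, -0.14 ± 0.17. Fbln1, a fibulin of elastic and basement membrane matrix, had a value of -0.19 ± 0.15, and its 3 lowest readings, from 120 to 142, were those of animals 8, 10 and 11, against 204 to 210.1 in controls. Those 3 animals also had the lowest readings for Pdgfrb and Ccn1, and their arrays had the lowest median intensities of all 11, from 149.0 to 153.0 against 159.3 to 186.6. What part this had in these readings was not tested. Postn and Tnc, matricellular proteins of remodelling tissue, were dim: Postn had mean log2 signals of 6.42 in controls and 6.45 in high-dosed animals, and Tnc of 7.01 and 7.10. Named after its values were seen, Postn read 143 in animal 11 and at most 47.4 in any other animal.

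None of the 4 laminin and nidogen genes, which build basement membranes, passed, with values from -0.087 for Lama2 to 0.12 for Lamc1. Nid1, which links laminin to collagen IV, read 753, 781 and 799 in controls and from 734 to 986 (median 809) in high-dosed animals. Its ranges overlapped, and the log2 fold change was 0.089 ± 0.083 (limma adjusted p = 0.547). The second probe set of Lamc1 had a value of the opposite sign, -0.14. The lysyl oxidases that crosslink collagen and elastin did not pass either. Lox read 280.2, 308 and 245 in controls and from 205 to 307 (median 235) in high-dosed animals. Of the 8 high-dosed animals 5 lay below all controls, and its value was -0.17 ± 0.11 (limma adjusted p = 0.343). Its dimmer probe set, under the filter, gave 0.32, so the sign depended on the probe set. Loxl1 had a value of 0.082 and Loxl2 of -0.012.

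Neither of the 2 matrix proteases passed, and their values had opposite signs. Mmp2, gelatinase A, which stellate cells secrete, read 307, 338 and 294 in controls and from 357 to 538 (median 395) in high-dosed animals. All high-dosed animals lay above the controls, animal 11 the highest. Its log2 fold change of 0.35 ± 0.11 missed the threshold (limma adjusted p = 0.0549), and it was 0.30 without animal 11 (adjusted p = 0.0502). It passed with the filter at the 60th percentile (0.35, adjusted p = 0.048), where fewer genes were tested, with the same block on animal numbers (0.35, adjusted p = 0.0487) and without animals 8, 10 and 11 (0.33, adjusted p = 0.0448). Its other probe set, under the filter, gave -0.12, and with the mean of both the value was 0.11 (adjusted p = 0.431). Mmp14, the membrane protease that activates the proform of Mmp2, read 1629, 1946 and 1644 in controls and from 1168 to 2363 (median 1539) in high-dosed animals. Animal 2 was the highest of all and 6 of 8 lay below all controls, with a value of -0.16 ± 0.17 (limma adjusted p = 0.597).

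Of the 3 protease inhibitors Timp2 rose. Timp2 both inhibits metalloproteinases and serves as the adaptor through which Mmp14 activates Mmp2. Its intensities were 604, 540.5 and 648 in controls 1, 2 and 9, and from 733 to 1034 (median 836) in high-dosed animals. All high-dosed animals lay above all controls. The log2 fold change was 0.49 ± 0.10 (limma adjusted p = 0.00959), a 1.41-fold difference, and it stayed between 0.43 and 0.55 and below 0.05 in adjusted p when any 1 array was left out (highest adjusted p = 0.0488). The other of its 2 probe sets, dimmer on average (mean log2 signal 8.86 against 9.71), had a value of the opposite sign, -0.20 ± 0.17 (limma adjusted p = 0.541 over all probe sets). With the mean of both probe sets the value was 0.15 and was not called (adjusted p = 0.355). Timp1, the inhibitor most tied to activated stellate cells, had a value of 0.081 ± 0.098. Timp3, which binds to the matrix, read 822, 846 and 1006 in controls and from 645 to 1042 (median 890.1) in high-dosed animals, with overlapping groups and a value of -0.046 ± 0.13 (limma adjusted p = 0.853).

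**Figure D4:**
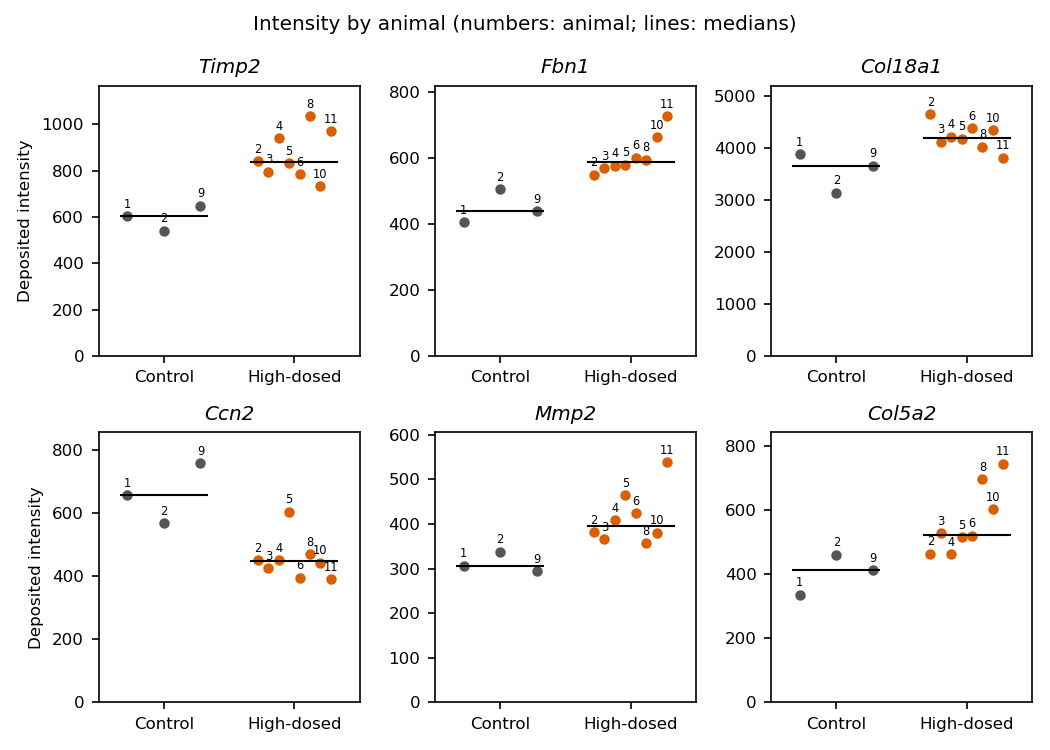
Deposited intensity (linear axis from 0) of Timp2, Fbn1, Col18a1, Ccn2, Mmp2 and Col5a2, with a numbered point for each of 3 control and 8 high-dosed animals and a line at each group's median. The groups do not overlap for Timp2, Fbn1, Mmp2 and Col5a2, while animal 5 lies among the controls for Ccn2 (606) and animal 11 for Col18a1 (3811).

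Contractile and filament genes did not pass. Vim, the intermediate filament of mesenchymal and many other cells, read 1315, 2140 and 2183 in controls and from 2167 to 3315 (median 2633) in high-dosed animals. Animals 2 and 6 lay close to controls 2 and 9, and control 1 was far below. Its log2 fold change was 0.50 ± 0.16 (limma adjusted p = 0.0673), and 0.27 without control 1 (adjusted p = 0.397). With the block on animal numbers it passed (0.48, adjusted p = 0.0244). Acta2, the smooth muscle actin that marks activated stellate cells, lay under the filter, with mean log2 signals of 7.52 in controls and 7.24 in high-dosed animals, and it was not tested. Tagln, which binds actin, had a value of 0.037 ± 0.19. Des, the muscle filament protein also found in rat stellate cells, had a value of 0.068 ± 0.19, and animal 11 read 325 against 109 to 163 in all others. Without animal 11 the value of Des turned to -0.053 (limma adjusted p = 0.769).

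None of the 6 tested stellate cell markers and receptors passed, and 5 of them had values below 0, with a median of -0.12. Ecm1, secreted by stellate cells and hepatocytes, read 2709, 2564 and 2715 in controls and from 1970 to 2559 (median 2212) in high-dosed animals, 1969.7 being that of animal 11. The groups did not overlap, by a margin of 2564 against 2559. Its value was -0.23 ± 0.085 (limma adjusted p = 0.106). Pdgfrb, the receptor through which platelet-derived growth factor drives stellate cell growth, read 413, 465 and 330 in controls (329.7 for control 9) and from 206 to 413 (median 341) in high-dosed animals. Its groups overlapped, and the value was -0.27 ± 0.17 (limma adjusted p = 0.333), and -0.20 without animal 11. Of the other 2 probe sets of Pdgfrb, 1 was called lower in the fit over all probe sets (-0.43 ± 0.10, limma adjusted p = 0.0254) and the other was not (-0.093 ± 0.11). Pdgfra, the paired receptor, had a value of -0.18 ± 0.078 (limma adjusted p = 0.171). Lrat (-0.055), Reln (0.094) and Cygb (-0.058), an oxygen-binding globin of stellate cells, did not pass.

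Set side by side, the median log2 fold change was 0.18 for 12 collagens and -0.12 for 6 stellate cell markers and receptors, and the 3 inhibitors had a median of 0.081 and the 2 proteases of 0.094. The stellate cell group had 1 value above 0 in the fit as deposited, after quantile normalization and after both kinds of median centring. It had 2 without control 1, without control 9 and in the animals numbered 6 and below. Without animals 8, 10 and 11 its median was -0.058 and that of the collagens 0.10. By animal, its mean relative to the control mean ran from -0.031 to 0.039 in controls and from -0.25 in animal 11 to 0.027 in animal 4, so that animals 4 and 5 lay inside the control range and the other 6 below it. Animal 11 was thus the highest animal for the fibrillar collagens and the lowest for the stellate cell markers. With so few genes in a group these medians are descriptions.

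Of the CCN genes Ccn2 fell and Ccn1 did not pass, and the difference between them was not tested. Both encode secreted matricellular proteins and are textbook targets of the YAP and TEAD regulators that respond to cell stretch, and their promoters are shown because only Ccn2 passed the test. In the RefSeq sequence of build GRCr8, from 250 bases before to 50 after the gene start and printed 5′ to 3′ on the gene's strand (chr1:22624565-22624864 for Ccn2 and chr2:237225640-237225939 for Ccn1, both on the minus strand), capitals mark the TEAD motif GGAATG on either strand.
Ccn2: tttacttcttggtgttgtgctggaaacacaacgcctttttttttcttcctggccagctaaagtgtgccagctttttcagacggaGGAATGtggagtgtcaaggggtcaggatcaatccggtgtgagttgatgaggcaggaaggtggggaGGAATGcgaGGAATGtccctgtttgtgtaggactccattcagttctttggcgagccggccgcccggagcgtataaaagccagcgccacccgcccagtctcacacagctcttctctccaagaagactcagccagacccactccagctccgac
Ccn1: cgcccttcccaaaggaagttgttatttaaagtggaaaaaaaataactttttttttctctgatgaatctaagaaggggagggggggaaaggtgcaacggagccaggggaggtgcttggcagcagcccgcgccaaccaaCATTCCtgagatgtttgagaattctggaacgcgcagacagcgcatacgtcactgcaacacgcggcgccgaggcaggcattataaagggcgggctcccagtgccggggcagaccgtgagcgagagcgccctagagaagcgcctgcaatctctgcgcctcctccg
The Ccn2 window held 3 matches, beginning 166, 101 and 92 bases before the gene start, and that of Ccn1 held 1, on the opposite strand, 113 bases before the start. The motif occurred in 14.2% of 33469 windows of the same length, and in 9 of the 32 members that had a promoter in the table. Both windows also held the TATA box letters TATAAA, found in 14.2% of windows. A match is a string of letters and was not measured here as a bound site.

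Ccn2 read 658, 569 and 760 in controls 1, 2 and 9 (760.1 for control 9), and from 391 to 606 (median 448) in high-dosed animals. All but animal 5 lay below all controls. The log2 fold change of Ccn2 was -0.50 ± 0.11 (adjusted p = 0.0183 in limma), and controls were 1.41-fold higher. The call was lost without control 1 (-0.50, adjusted p = 0.0825), without control 9 (-0.40, adjusted p = 0.0812), in the animals numbered 6 and below (-0.37, adjusted p = 0.157) and without animals 8, 10 and 11 together (-0.47, adjusted p = 0.0563). Ccn1 read 675, 610.3 and 648 in controls and from 569.5 to 749.7 (median 663) in high-dosed animals. Its high-dosed values lay on both sides of the controls, and its log2 fold change was 0.011 ± 0.092 (limma adjusted p = 0.955). Of 17 tested genes on a list of immediate early genes and targets of SRF and YAP, 2 rose and 0 fell, the stress gene Ier3 (0.54 ± 0.15) and the flow-responsive factor Klf2 (0.49 ± 0.094), with limma adjusted p of 0.0349 and 0.00728. That share, 11.8%, lay near the 10.6% of all genes tested. Named after their values were seen, the YAP targets Amotl2 (-0.050) and Ajuba (0.37) were not called. On the same list Lats2 (0.026) was not called, and Ankrd1 lay under the filter.

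Genes that act around these were read from lists set with earlier results of these data known. Of all genes tested 10.6% changed, 7.91% higher and 2.74% lower. The share that changed was 5% for TGF-beta signalling, 7.14% for collagen processing and 6.25% for other proteases and inhibitors. It was 7.69% for integrins and other matrix receptors and 21.4% for further stellate cell genes. Of 20 tested genes of TGF-beta signalling 0 rose and 1 fell, the secreted matrix protein Tgfbi (-0.18 ± 0.045, limma adjusted p = 0.0230). Of 14 genes that hydroxylate, fold or trim collagen 0 rose and 1 fell, P4ha1, a prolyl hydroxylase subunit (-0.35 ± 0.10, limma adjusted p = 0.0459). Of 26 other matrix genes 0 changed in the limma fit, with 5 at an unadjusted p below 0.05, against 2753 of all 10714 genes tested. Of 16 other proteases and inhibitors 1 rose, the broad protease inhibitor A2m (1.53 ± 0.29, limma adjusted p = 0.00715), and 0 fell. Of 13 integrins and other matrix receptors 1 rose, Itgb1, the common beta chain (0.29 ± 0.062, limma adjusted p = 0.0123). The single tested ligand of the platelet-derived growth factor receptors, Pdgfa, had a value of 0.39 ± 0.19 and did not pass (limma adjusted p = 0.218). Of 14 further stellate cell genes 2 rose, Bambi, a decoy receptor of the TGF-beta family (1.06 ± 0.14, limma adjusted p = 0.00130), and the mesenchymal factor Tcf21 (0.32 ± 0.090, limma adjusted p = 0.0413), and 1 fell, the adhesion molecule Alcam (-0.41 ± 0.11, limma adjusted p = 0.0307). Bambi was higher in all 8 high-dosed animals than in all controls, with log2 signals from 8.86 to 9.52 against 7.99 to 8.26. Only 5 of these 14 genes had a log2 fold change above 0, and the median of the list was -0.053.

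Markers of other cells of the liver were measured beside the members, and their part in the members' values was not tested. Of all genes tested 10.6% changed, 7.91% higher and 2.74% lower. The share that changed was 25% for endothelial, 6.25% for macrophage and 40% for cholangiocyte markers. It was 12.5% for smooth muscle and portal fibroblast, 13.3% for hepatocyte and 0% for lymphocyte markers. Of 16 endothelial markers 4 rose and 0 fell, Ramp2 (0.59), Emcn (0.55), Pecam1 (0.60) and Stab2 (0.40), and the list summed to 18522 to 21263 in controls and 20854 to 23100.4 in high-dosed animals. Of 16 macrophage markers Mrc1, a mannose receptor, rose (0.31) and 0 fell. They summed to 34602 to 47633 in controls and 47152 to 62674 in high-dosed animals, and 14 of 16 were lowest in control 1. Of 5 tested cholangiocyte markers 2 rose, Epcam (0.83) and Anxa4 (0.39), and 0 fell. Prom1 (-0.90), Spp1 (0.18) and Onecut1 (-7e-04) were not called. The 11 with a probe set summed to 6661 to 9629 in controls and 6633 to 9966 in high-dosed animals. Onecut1 was the brightest of them, with log2 signals from 11.76 to 12.79, and made up much of each sum. Of 8 smooth muscle and portal fibroblast markers 1 rose, Dpt, encoding the matrix protein dermatopontin (0.59 ± 0.13, limma adjusted p = 0.0175). The list summed to 7334 to 10133 in controls and 10008 to 13224 in high-dosed animals. Dpt was its brightest gene, with log2 signals from 12.28 to 13.42, and made up much of each sum. Only 2 of the 8 had a log2 fold change above 0, and the median of the list was -0.054. Of 15 hepatocyte markers Apoa1 rose (0.35) and Asgr1 fell (-0.18), with sums of 282586 to 285398 against 277755 to 291809. Of 8 lymphocyte markers 0 changed in the limma fit and 0 had an unadjusted p below 0.05, with sums of 1860 to 2301 against 1827 to 2346. No marker with a probe set in these lists had a mean at the lowest value of the table, which few values reached, so this does not show expression.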

How the data were processed

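Liver RNA of 3 control and 8 high-dosed rats was measured on 1 array each. The deposited table holds an intensity per probe set on a linear scale for 31099 probe sets; MAS5 is the tool named by the submitters' processing notes, without its version or its role, and the sources used here give neither a scaling target nor detection calls. Array medians ran from 149.0 to 186.6, and the number of arrays, not a depth, limits the precision. Intensities were used as deposited by the authors and transformed as log2(intensity + 55.3), the pseudocount being the 20th percentile of all values, so folds of dim genes are understated. Probe sets were named from the platform annotation, checked by Entrez identifier against RefSeq (GRCr8), and 1 probe set of a single symbol was kept per gene (14217 genes). Genes whose mean log2 signal exceeded its 40th percentile were fitted with limma 3.58.1 in R 4.3.3 (lmFit and eBayes with an intensity trend, two-sided, 3 control against 8 high-dosed animals), with Benjamini-Hochberg adjustment over all 10714 genes and a threshold of 0.05. The code was tested on simulated data. Full values are given for the called members, the 6 uncalled members with the largest absolute log2 fold change and the member of highest mean signal in each role; from other lists up to 4 called genes are named. The members and lists were chosen with earlier results of these data known. Alternatives changed the scaling, pseudocount, filter, probe set rule, variance model and the arrays used.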

Additional observations from a re-analysis of the deposited data

Results flagged for a closer look

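In 6 of the 45 genes with a probe set, 1 of the 8 high-dosed animals lay far from the other 7, by a gap divided by the group's range that exceeds Dixon's 95% critical value; chance gives this in about 1 in 20 groups. In 4 of the 6 it was animal 11 that lay highest: Lum had a ratio of 0.725 (log2 signal 10.08, the next animal 7.95), Dcn 0.551 (10.50 against 9.34), Des 0.664 (8.57 against 7.77) and Postn 0.869 (7.63 against 6.41), Postn being under the signal filter. Bgn had a ratio of 0.54 with animal 8 the lowest (10.67 against 11.20), and without animals 8, 10 and 11 its log2 fold change was 0.0033 in place of -0.14. Ccn2 had a ratio of 0.584 with animal 5 the highest (9.37 against 9.04).

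Animal 11's lead over the next animal ranked 6 for Lum, 22 for Dcn and 28 for Des among 10714 genes, and Tnnc2, a skeletal muscle gene, ranked 1. What part the muscle and epidermis signal of that array had in these values was not tested.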

How the results depend on the processing

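No paired analysis was possible because the groups share only 1 animal number. Over 13 settings that left no single array out, 482 of 536 member values kept their direction and their side of the threshold. Most of these values belonged to the 38 uncalled members. Of the others 33 changed sign, 5 gained a call and 16 lost one, and all 16 losses fell on the 4 called members. Among all genes 1141 were called, 847 higher and 294 lower. Without high-dosed animals 8, 10 and 11 there were 716 (506 higher), with median centring over probe sets above the filter (added after seeing the data) 731 (473 higher), and with median centring over all probe sets 147 were lower. Higher genes made up 74.2% of calls, 63.8% after quantile normalization, 82.7% after median centring and 64.7% after centring above the filter. In the animals numbered 6 and below, added after seeing the data, 612 genes were called (408 higher), and in those numbered 8 and above, with 1 control assumed to vary like the other arrays, 3 (2 higher, 1 lower). Against 4 called members, 3 higher and 1 lower, there were 2 (1 higher) with the mean of all probe sets, where 917 genes were called in all, 7 (6 higher) with animal numbers as a block, where 1520 or 14.2% of all genes were called, 1 (1 higher, 0 lower) in numbers 6 and below, 0 (0 higher, 0 lower) in numbers 8 and above and 0 lower without animals 8, 10 and 11. Leaving out 1 array gave 325 to 1406 called genes, 246 to 1081 higher and 79 to 325 lower, with the fewest without control 1, and 1 (without control 9) to 7 (without high-dosed animal 2) called members, 1 to 6 higher and 0 to 1 lower.

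Beside the losses named above, the call of Col18a1 was lost with median centring (adjusted p = 0.0537), centring above the filter (0.108), no filter (0.0501), the mean of all probe sets (0.107), no variance trend (0.0581), without animals 8, 10 and 11 (0.0536), and in numbers 6 and below (0.0867) or 8 and above (0.346), all from limma.

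The log2 fold change of these uncalled members changed sign. Leaving out 1 array, Ccn1 ran from -0.025 to 0.042, Col4a2 from -0.042 to 0.069, Col5a1 from -0.095 to 0.040, Col6a1 from -0.039 to 0.037, Des from -0.053 to 0.12, Lama2 from -0.17 to 0.0057, Loxl2 from -0.037 to 0.0067, Lrat from -0.19 to 0.017, Tagln from -0.087 to 0.14 and Timp3 from -0.099 to 0.039. Quantile normalization gave -0.028 for Ccn1, -0.038 for Col4a2, -0.035 for Col6a1 and 0.029 for Loxl2. Median centring gave 0.028 for Col5a1 and 0.026 for Loxl2, and centring above the filter -0.011 for Ccn1, -0.015 for Col4a2 and -0.014 for Col6a1. The mean of all probe sets gave -0.0076 for Lamc1, 0.074 for Lox and 0.044 for Loxl2. Without animals 8, 10 and 11 the values were 0.0033 for Bgn, 0.0021 for Col15a1, -0.034 for Col1a2, 0.043 for Col5a1, -0.031 for Lamb1, 0.023 for Loxl2 and -0.18 for Tagln. In numbers 6 and below they were 0.025 for Bgn, -0.035 for Col4a2, -0.010 for Des, 0.0046 for Fbln1, -0.092 for Lamb1, 0.039 for Loxl2, 0.041 for Lrat, -0.070 for Tagln and 0.045 for Timp3. In numbers 8 and above they were -0.16 for Ccn1, 0.068 for Col5a1, -0.044 for Col6a1, 0.28 for Lama2 and -0.018 for Timp1. The cause was not tested. With 3 controls, 1 array can decide a call.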
